A study of Mus musculus with 12 samples.

Results

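The genes described here are 36 genes of the apoptosis machinery, chosen by name from the BCL2 family, the caspases and apoptosome, the inhibitors of apoptosis, the death receptors with their ligand and adaptors, and p53 with the mitochondrial and nuclear factors that degrade DNA. They were 36 of the 31053 genes listed for each library, and all 36 had enough counts to be tested in at least 1 cell class. Their levels were read from 12 droplet single-cell RNA libraries (10x Genomics 3′ chemistry) of the stromal vascular fraction (SVF), the cells left after collagenase digestion of white fat once the floating adipocytes and the red blood cells have been removed. All mice were male and 12 weeks old. C57BL/6J mice given methylcellulose vehicle (WT-Veh) were compared with Lepob/Lepob mice, which lack functional leptin and become obese, given vehicle (ob/ob-Veh) or 30 mg/kg rosiglitazone (ob/ob-Rosi) by gavage each morning and evening over 3 days. Rosiglitazone is an agonist of PPARγ, the nuclear receptor that drives adipogenesis. Epididymal fat (eWAT) and inguinal fat (iWAT) gave 2 biological replicate libraries for each of the 3 groups, and small pieces from several places of a depot went into each library. The comparisons ask how the expression of these genes in each SVF cell class differed between obese and lean mice, and between obese mice with and without the drug.

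Cells die by apoptosis along an intrinsic and an extrinsic route. In the intrinsic route BH3-only proteins engage the guardians of the BCL2 family and release the effectors BAX and BAK, which perforate the outer mitochondrial membrane. Cytochrome c then assembles APAF1 and caspase-9 into the apoptosome, whereas in the extrinsic route ligands such as FASL act through death receptors and FADD on caspase-8. The inhibitors of apoptosis, among them XIAP and the cellular inhibitors encoded by Birc2 and Birc3, restrain caspases and shape NF-kB signalling. Fat tissue of obese animals is known for dying adipocytes ringed by macrophages, but floating adipocytes were removed before these libraries were made, though 11 to 265 Adipoq UMIs remained in each, and the values below concern the SVF cell classes.

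Cells were sorted into classes by clustering and marker genes that did not include the 36 genes, and a class is written X-like because it was named from markers. Adipocyte progenitor cells are APC-like, endothelial cells EC-like, perivascular macrophages PVM-like, non-perivascular macrophages and monocytes NPVM-like, and lipid-associated macrophages, which carry Trem2, LAM-like. B, T, NK, dendritic (DC) and mesothelial classes were named in the same way. An iWAT cluster led by Lyz1, Tnip3, Ccr2 and Ear2 could not be named and is called the Lyz1-led cluster. Levels are given in CPM, the UMIs of a gene per 1000000 UMIs of a class in a library, where a UMI is a counted molecule of RNA. A row of 6 values starts with the WT-Veh pair of libraries and ends with the ob/ob-Rosi pair.

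The libraries held 20132553 to 92475986 UMIs and kept 6472 to 17500 cells each, 126095 in all, and pairs of libraries shared only 20 to 72 cell barcodes. In iWAT WT-Veh replicate 1, 9595 of the 17063 kept cells fell in a cluster of low depth that was left unnamed. In both depots the ob/ob-Veh libraries stood apart from the other 2 groups. The eWAT LAM-like class had 5276 and 1857 cells in the WT-Veh libraries, 124 and 162 in the ob/ob-Veh libraries, and 3223 and 3803 in the ob/ob-Rosi libraries. Its marker Trem2 was at 1610 and 1689, then 359 and 338, then 1559 and 1953 CPM, so the class was poorer in that marker in the ob/ob-Veh libraries. Lep mRNA is known to be raised in the fat of ob/ob mice, whose defect lies in the protein, but in eWAT the WT-Veh libraries had 28.0 and 42.5 Lep UMIs per 100 Adipoq UMIs, the ob/ob-Veh libraries 3.95 and 16.2 and the ob/ob-Rosi libraries 240 and 390. This ratio goes against the ob/ob-Veh label in eWAT, on few molecules, with 33 and 37 Lep UMIs in WT-Veh and 7 and 43 in ob/ob-Veh. In iWAT the ob/ob-Veh libraries had 36.4 and 15.1, from 4 and 8 Lep UMIs, and overlapped the WT-Veh libraries (20.1 and 31.6). The iWAT ob/ob-Rosi libraries had 164 and 141, so the ob/ob-Veh libraries lay below them in iWAT too. Each group name here means the libraries that carry that label, and each direction rests on it. Since both effects use the ob/ob-Veh libraries, a gene that was high or low in those libraries moved in opposite directions in the obesity and the drug comparison by construction.

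Among the guardians, Bcl2a1b and Bcl2a1d, which encode guardians of the A1 type that are common in blood cells, are near copies of each other and of Bcl2a1a. Their first 30 coding bases on chromosome 9 (GRCm38) are shown because reads cannot always be assigned to 1 copy, and capitals mark the 5 positions that differ among the copies.
Bcl2a1b, chr9:89199360-89199389, plus strand: atgGctgagtACgagTtcatgTatatccac
Bcl2a1d, chr9:88731690-88731719, minus strand: atgTctgagtACgagTtcatgTatatccac
Bcl2a1a, chr9:88957051-88957080, plus strand: atgGctgagtCTgagCtcatgCatatccac
Over 516 coding bases Bcl2a1b and Bcl2a1d were 98.8% identical. In the last 500 transcript bases, where 3′ libraries place their reads, 32.9% of the 100-base windows of Bcl2a1b and 57.1% of those of Bcl2a1d also occurred in another copy, so the split of UMIs between the copies is uncertain.

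For Bax and Trp53, the genes of an effector and of p53, the 30 bases around a motif match in the 300-base promoter window (250 bases before to 50 bases after the RefSeq start, GRCm38.p6) are shown because Bax is a known target of p53 and Trp53 a known target of NF-kB, with the match in capitals.
Bax, p53 half-site, chr7:45467080-45467109, minus strand: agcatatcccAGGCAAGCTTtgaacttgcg
Trp53, kappaB motif, chr11:69580344-69580373, plus strand: tgctgggattGGGACTTTCCcctcccacgt
Promoters were found for 32 of the 36 members. The p53 half-site occurred in those of 5 members (Bax, Birc2, Bmf, Fasl and Trp53) and in 8.36% of all 32851 promoters searched on both strands. The kappaB motif occurred in those of 5 members (Aifm1, Bbc3, Bcl2l1, Bmf and Trp53) and in 4.51% of all promoters. A member was counted once if any of its promoters matched, whereas the percentages count promoters, so the numbers are not directly comparable. No match was found in the windows of Birc3 or Bcl2a1b.

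The members differed widely in the cell classes that carried them, which is given as a description. Among guardians, Bcl2 was highest in NK-like cells of eWAT at 541 ± 175 CPM (SD, n = 6 libraries, all groups) with T-like cells close behind at 461 ± 117, and lowest in PVM-like cells at 10.5 ± 3.55. Bcl2l1, the gene of BCL-XL, was highest in EC-like cells at 190 ± 54.2 CPM, and its lowest EC-like library (106) lay above the highest mesothelial-like library (61.9), the next class. Mcl1, the gene of a short-lived guardian, was led by NPVM-like cells at 889 ± 41.7 CPM and PVM-like cells at 886 ± 141, which did not differ beyond their spread.

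Endothelial-like cells also had the highest mean of Bik, Xiap, Casp8, Fas and Cflar, although for Casp8, Fas and Cflar the eWAT libraries overlapped those of the next class. Bik, a BH3-only gene, reached 38.3 ± 19.6 CPM in eWAT EC-like cells, and no library of another class overlapped these values. Xiap, the gene of the caspase inhibitor, reached 344 ± 107 CPM there and the next class, NPVM-like, 105 ± 36.3 without overlap. The death receptor gene Fas was at 86.5 ± 23.8 CPM in eWAT EC-like cells and at 105 ± 25.4 in iWAT EC-like cells.

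Fasl, the ligand gene, was highest in the cytotoxic lymphoid classes. It was at 150 ± 32.9 CPM in eWAT NK-like cells, at 55.1 in T-like cells and at 0.1 in LAM-like cells. In the 6 eWAT libraries the NK-like level was 119, 160, 188, 185, 136 and 112 CPM, and no comparison called it. With each cell thinned to 700 UMIs, Fasl was seen in 8.29% to 14.9% of NK-like cells, against at most 0.0588% of APC-like cells in eWAT (13.8% to 34.4% and at most 0.241% without thinning). Pmaip1, the gene of the BH3-only protein NOXA, was highest in DC-like cells at 270 ± 93.9 CPM and lowest in APC-like cells at 5.09 ± 3.52. The heat map of mean levels shows that the same class had the highest mean in iWAT for Bcl2l1, Bik, Xiap, Casp8, Fas and Cflar (EC-like) and for Fasl (NK-like), with overlap with the next class for Bik, Xiap, Casp8 and Cflar.

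**Figure D1:**
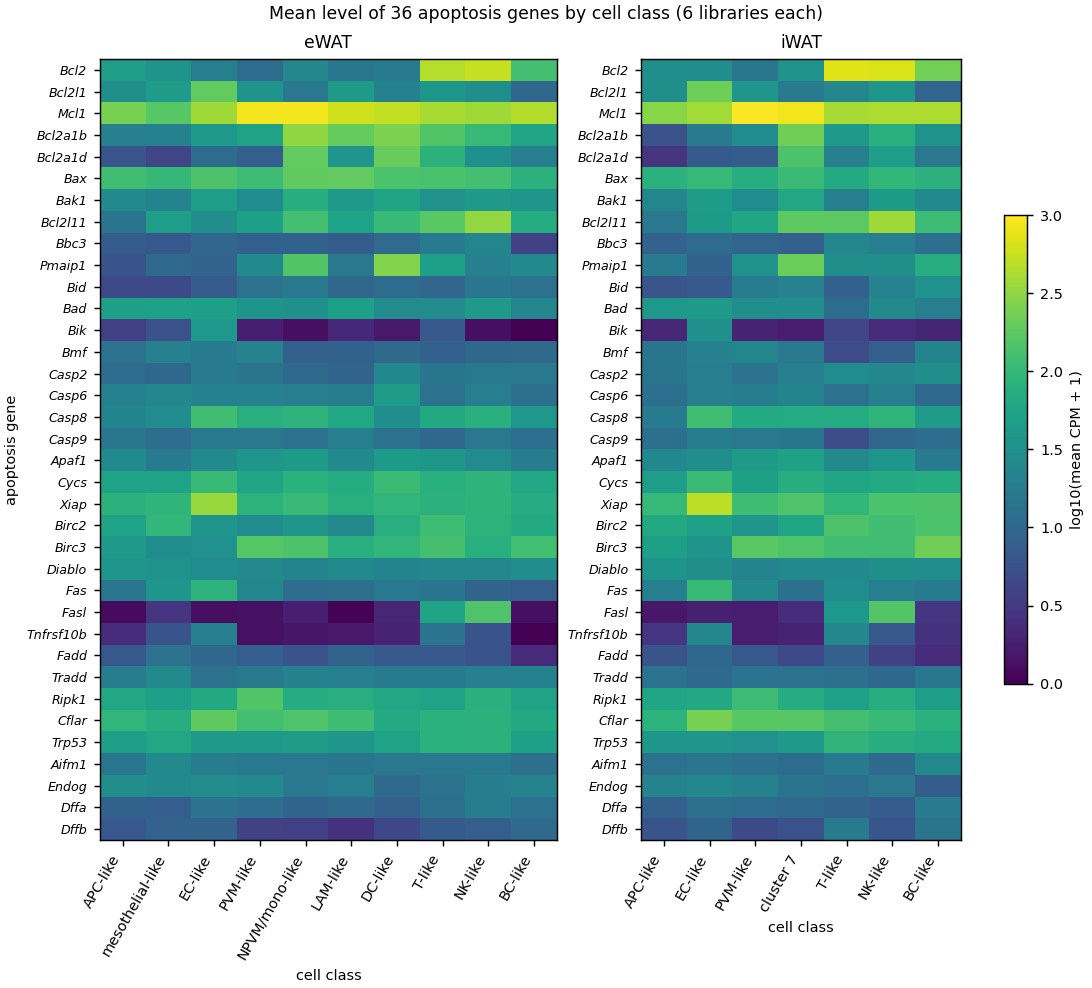
Mean level of each of the 36 apoptosis genes (rows) in each cell class (columns) of eWAT and iWAT, as log10(mean CPM + 1) over 6 libraries. Bcl2 and Fasl stand out in T-like and NK-like columns, Bcl2l1, Bik, Xiap and Fas in the EC-like column, and Mcl1 is high in nearly every column.

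In eWAT, the ob/ob-Veh libraries differed from the WT-Veh libraries mainly in a lower Bax, a lower Bcl2a1b and a higher Birc3. Of 295 pairs of a member and a class that could be tested, 27 passed the test (11 higher, 16 lower, 13 members), which is 9.15% of the pairs beside 7.35% of all gene-class pairs (3.52% higher, 3.83% lower). The share of members was thus little above the background, and the median change of the members was 0.10 on the log2 scale against 0.00 over all genes. The LAM-like class alone gave 12 of the 27, with 34.3% of its members called beside 28.1% of all its genes. PVM-like cells gave 5, or 15.2% beside 3.38%, and BC-like, DC-like and NK-like cells gave no call of a member.

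The eWAT split of directions depended on the scaling. With library size in place of TMM scaling the 26 calls divided into 17 higher and 9 lower, and the median of all genes shifted by 0.064 (APC-like) to 0.356 (LAM-like) on the log2 scale. Without ob/ob-Veh replicate 1 or 2 the count was 11 or 9, and without WT-Veh replicate 1 or 2 it was 9 or 15. A call means an adjusted p no higher than 0.05 and a change of 1.1-fold or more in edgeR's quasi-likelihood test, fitted to sums per library and class and adjusted over all genes of that class. With 2 libraries a group, an exact permutation test of a single value could not go below p = 0.33. The replicates are labelled as biological, but which mouse gave each library is not used here.

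The drug comparison in eWAT, ob/ob-Rosi against ob/ob-Veh, also gave 27 called pairs of 295 (18 higher, 9 lower, 14 members) beside a background of 7.19% (3.78% higher, 3.41% lower). Bax rose in 7 classes and Birc3 fell in 5. LAM-like cells gave 14 of the 27, 40.0% of the members there beside 28.1% of all genes. With library size alone the split turned to 9 higher and 17 lower, the median of all genes shifting by -0.383 (LAM-like) to 0.132 (BC-like). The count was 10 or 8 without ob/ob-Veh replicate 1 or 2, and 51 or 12 without ob/ob-Rosi replicate 1 or 2.

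**Figure D2:**
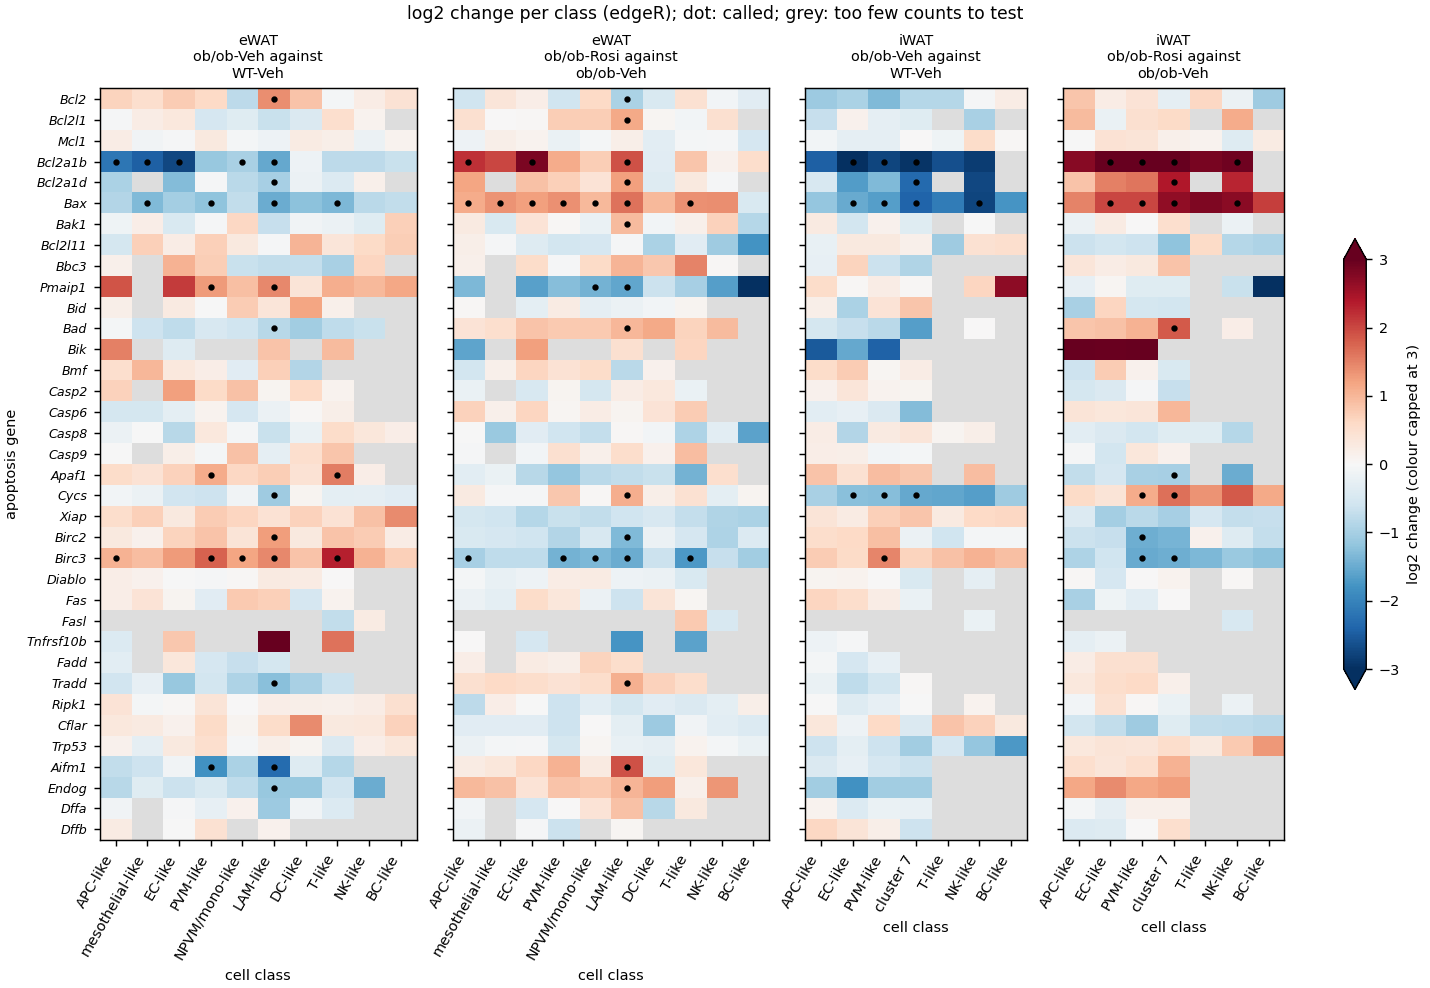
log2 change of each member (rows) in each class (columns) for the obesity and the drug comparison in eWAT and iWAT, fitted by edgeR, with called pairs dotted and untested pairs in grey (cluster 7 is the Lyz1-led cluster). Bax is blue in each class of both obesity panels and Birc3 red, and the drug panels, which share the ob/ob-Veh libraries, show the opposite colours in most classes.

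In iWAT, ob/ob-Veh libraries differed from WT-Veh libraries by a lower Bax, Bcl2a1b and Cycs. The obesity and drug comparisons covered 7 iWAT classes, and LAM-like, NPVM-like, DC-like and mesothelial-like cells were not among them. The iWAT LAM-like class had 31 and 8 cells in the ob/ob-Veh libraries. Of 180 pairs 12 were called, 1 higher and 11 lower in 5 members, or 6.67% beside a background of 3.28% (1.93% higher, 1.35% lower). The drug comparison gave 16 (12 higher, 4 lower, 8 members), or 8.89% beside 5.98% (3.31% higher, 2.66% lower). With library size alone these became 2 higher and 6 lower, and 10 higher and 9 lower, with median shifts of 0.066 to 0.416 and of -0.537 to -0.083. Without either ob/ob-Veh library no pair was called in either iWAT comparison. Without WT-Veh replicate 1 the counts were 33 and 39, without WT-Veh replicate 2 the drug count was 38, and without ob/ob-Rosi replicate 2 it was 2.

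Between ob/ob-Rosi and WT-Veh libraries edgeR called no member in either depot, beside 0.0449% (eWAT) and 0.104% (iWAT) of all gene-class pairs in the same fits. Of 327 eWAT pairs 14 had an unadjusted p under 0.05, and of 280 iWAT pairs 11 did. DESeq2 called 1 and 2, and edgeR with the replicate number as a block called 1 in eWAT and 5 in iWAT. Bax in eWAT LAM-like cells differed by 0.13 on the log2 scale with a 95% interval of -0.39 to 0.64, and Birc3 in PVM-like cells by 0.34 (-0.21 to 0.90). The largest changes with the smallest p were Bmf, a BH3-only gene, at 1.52 ± 0.32 (adjusted p = 0.072) and Casp8 at -1.32 ± 0.27 (adjusted p = 0.0639), both in iWAT EC-like cells, a class in which WT-Veh and ob/ob-Rosi cells came mostly from different clusters. In eWAT EC-like cells Casp8 was -1.16 ± 0.24 (adjusted p = 0.122), and in CPM it went from 180 and 166 in WT-Veh over 108 and 104 in ob/ob-Veh to 87.8 and 69.2 in ob/ob-Rosi. These groups did not overlap, but the test did not call them.

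The effectors are BAX and BAK, and Bax was called in more classes than any other member in the eWAT drug comparison. In eWAT LAM-like cells Bax was at 237 and 213 CPM in WT-Veh, 80.6 and 122 in ob/ob-Veh, and 232 and 250 in ob/ob-Rosi. Both ob/ob-Veh libraries lay below the other 4. The obesity change was -1.49 ± 0.26 (log2 ± SE, adjusted p = 0.000835) and the drug change 1.62 ± 0.26 (adjusted p = 0.000406). Both calls held when each eWAT library was left out in turn.

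The same order was seen in other eWAT classes. In T-like cells Bax was at 151 and 176, then 71 and 73.5, then 161 and 182 CPM (changes of -1.34 ± 0.29, adjusted p = 0.0158, and 1.36 ± 0.30, adjusted p = 0.0286). In PVM-like cells it was at 139 and 125, then 50.6 and 71.8, then 114 and 176 CPM (-1.22 ± 0.28, adjusted p = 0.0443, and 1.38 ± 0.28, adjusted p = 0.0367). Mesothelial-like cells had 126 and 116, then 53.1 and 48.5, then 105 and 136 CPM (-1.32 ± 0.25 and 1.35 ± 0.25). APC-like, EC-like and NPVM-like cells were called in the drug comparison only, with Bax rises of 0.96 to 1.23, but whether this differs from the obesity comparison was not tested.

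Bax was lower under the ob/ob-Veh label in 10 of 10 eWAT and 7 of 7 iWAT classes, also with library size alone. Of all genes tested in each class, 25.5% and 28.5% were likewise lower in every class, so the sign alone is not unusual. Bax was called in 4 eWAT classes, as were 1.04% of genes (4 or more, lower), in 7 in the drug comparison (5 or more, higher, 0.645%), and in 4 iWAT classes in both comparisons (0.138% lower and 0.523% higher). Such shares of genes called in several classes, here and below, are over the 14568 eWAT or 14524 iWAT genes tested in any class. Many of those genes were tested in fewer classes than Bax. In the iWAT Lyz1-led cluster Bax was at 88.2 and 180 CPM in WT-Veh, 27.5 and 41.2 in ob/ob-Veh, and 148 and 171 in ob/ob-Rosi. There the changes were -2.40 ± 0.47 (adjusted p = 0.0204) and 2.67 ± 0.47 (adjusted p = 0.00995). The iWAT EC-like change of Bax was -1.50 ± 0.34 (adjusted p = 0.0494) and 2.01 ± 0.34 (adjusted p = 0.0257), and the PVM-like change -1.66 ± 0.39 (adjusted p = 0.0499) and 2.01 ± 0.39 (adjusted p = 0.0269).

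The iWAT NK-like calls rest on few molecules, since the ob/ob-Veh libraries held 3 and 1 Bax UMIs. The next best marker score of that class was T (0.67). Finer clustering gave a T-like cluster that shared the leading genes Ccl5, Nkg7 and Ly6c2 with it. That cluster held 0 and 1 ob/ob-Veh cells and 11 to 530 cells of each other library, so the NK-like groups can differ in their mix of cells. The gene for the ferritin light chain, Ftl1, which starts 1812 bases downstream of Bax on its strand, was also low in the ob/ob-Veh libraries, in eWAT LAM-like cells at 18875, 17272, 5843, 8501, 15516 and 21312 CPM. Whether counting near the end of Bax takes part in its change was not tested. Bak1, the other effector gene, was called once, in the drug comparison of eWAT LAM-like cells (37.8, 43.2, 32.5, 31.6, 35.9 and 59.1 CPM; 0.96 ± 0.31, adjusted p = 0.0308). Over all classes its obesity changes ran from -0.69 to 0.71 in eWAT, none of them called. No test compared Bak1 with Bax.

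**Figure D3:**
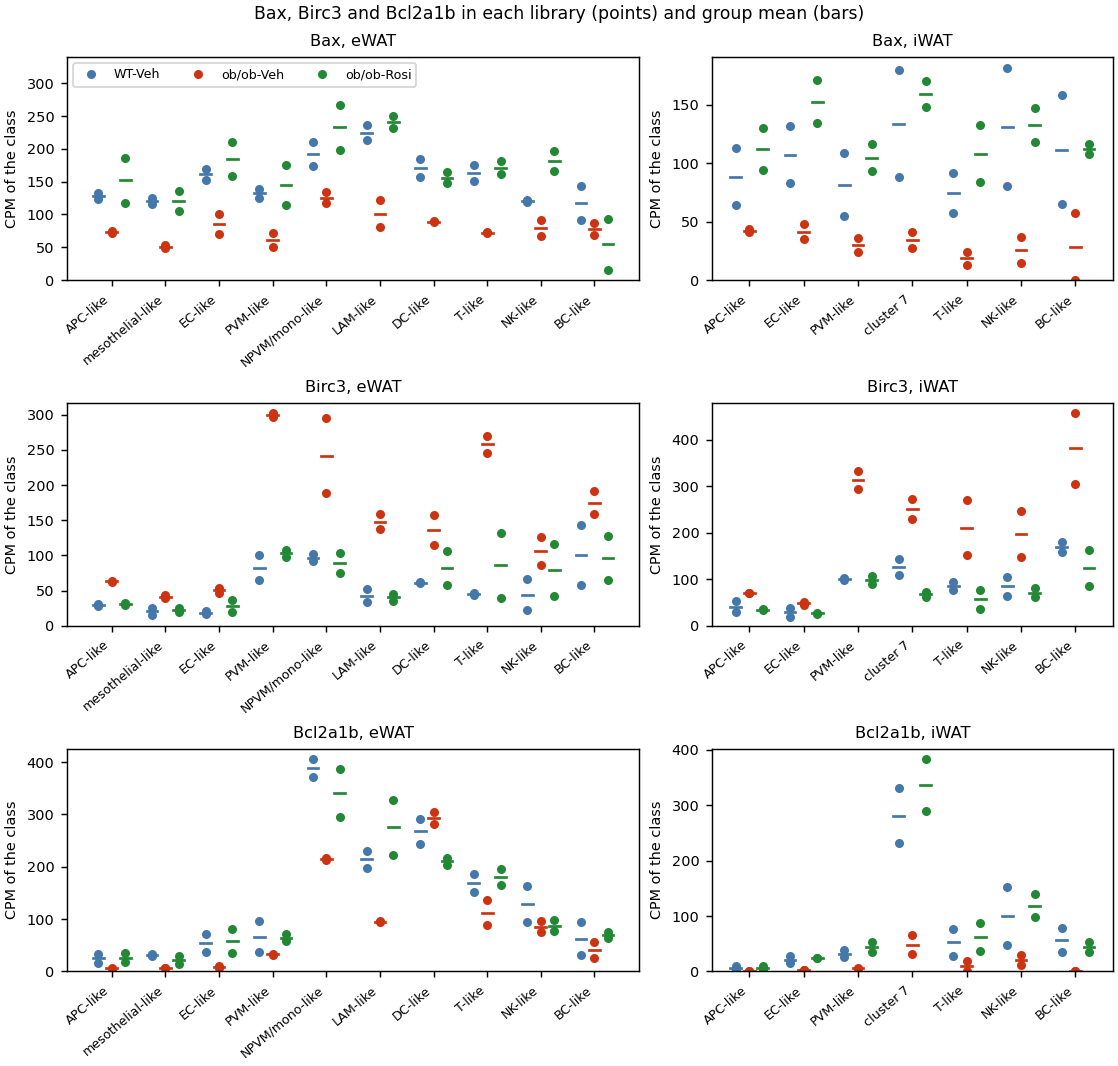
Bax, Birc3 and Bcl2a1b in CPM of the class, with each library a point (blue WT-Veh, red ob/ob-Veh, green ob/ob-Rosi) and short bars for the mean of 2 libraries, in eWAT (left) and iWAT (right). In eWAT LAM-like cells the ob/ob-Veh points for Bax lie at 80.6 and 122, below the other 4 at 213 to 250.

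Among the guardians 7 of 47 eWAT pairs were called in the obesity comparison (1 higher, 6 lower) and 6 in the drug comparison (5 higher, 1 lower), or 14.9% and 12.8% beside 7.35% and 7.19% of all gene-class pairs. In iWAT 4 of 30 (all lower) and 5 (all higher) were called, 13.3% and 16.7% beside 3.28% and 5.98%. The lower calls of the obesity comparison were of the A1 genes. Bcl2a1b in eWAT LAM-like cells was at 230 and 198 CPM in WT-Veh, 94.8 and 95.6 in ob/ob-Veh, and 328 and 222 in ob/ob-Rosi (-1.53 ± 0.27, adjusted p = 0.000835, and 1.91 ± 0.27, adjusted p = 0.000122). With cells assigned singly by their markers in place of clusters, the LAM-like obesity change of Bcl2a1b turned to 0.19 (adjusted p = 0.719). Cells of EC-like, APC-like, mesothelial-like and NPVM-like classes gave the other 4 eWAT calls for Bcl2a1b, and 0.659% of genes were called lower in 5 or more classes.

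The APC-like, EC-like and mesothelial-like classes lie outside the blood lineage, and macrophage RNA moved with Bcl2a1b in them. Bcl2a1b in EC-like cells was at 71.5 and 37.8, then 10.9 and 7.06, then 81.8 and 34.7 CPM (-2.74 ± 0.50, adjusted p = 0.0153). In the same sums the LAM marker Trem2 was at 366 and 336, then 8.6 and 8.6, then 350 and 359 CPM. In the APC-like class Bcl2a1b was at 34.3 and 16, then 4.94 and 6.96, then 34.4 and 17.9 CPM. Free RNA, estimated from the macrophage genes C1qa, C1qb and C1qc, made up 6.47% to 18.2% of eWAT APC-like UMIs and 16.2% to 44.7% of EC-like UMIs.

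After this share was subtracted, an alternative chosen after the data were seen, the Bcl2a1b change in eWAT APC-like cells was -0.78 (adjusted p = 0.605), and 15 of the 16 named calls in APC-like, EC-like and mesothelial-like cells were lost with the same direction. The other one, the Bcl2a1b obesity change in mesothelial-like cells, left too few counts to be tested. Bax, Birc3 and Cycs lost their calls at changes near those before, such as 1.26 for the Bax drug change in mesothelial-like cells, 2.03 for that in iWAT EC-like cells, 1.00 for the Birc3 obesity change in APC-like cells and -1.19 for Cycs in iWAT EC-like cells. Bcl2a1b in eWAT EC-like cells was then at -8.05 (adjusted p = 0.351) and 4.77 (adjusted p = 0.673), farther from 0 than before. The Bax drug change was 1.06 in APC-like cells (adjusted p = 0.0885) and 1.11 in EC-like cells (adjusted p = 0.478) under this subtraction. The count over all classes was then 23 in the obesity and 21 in the drug comparison of eWAT, and 9 and 14 in iWAT. It was not subtracted in macrophage-like and DC-like classes, which make C1q themselves, nor in lymphoid classes, where the estimate ran from 21.7% to 49.2% of the UMIs in eWAT T-like cells, a range like that of EC-like cells, and reached 126% in iWAT NK-like cells. The part of free RNA in the eWAT T-like calls of Bax, Birc3 and Apaf1 was not tested.

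**Figure D4:**
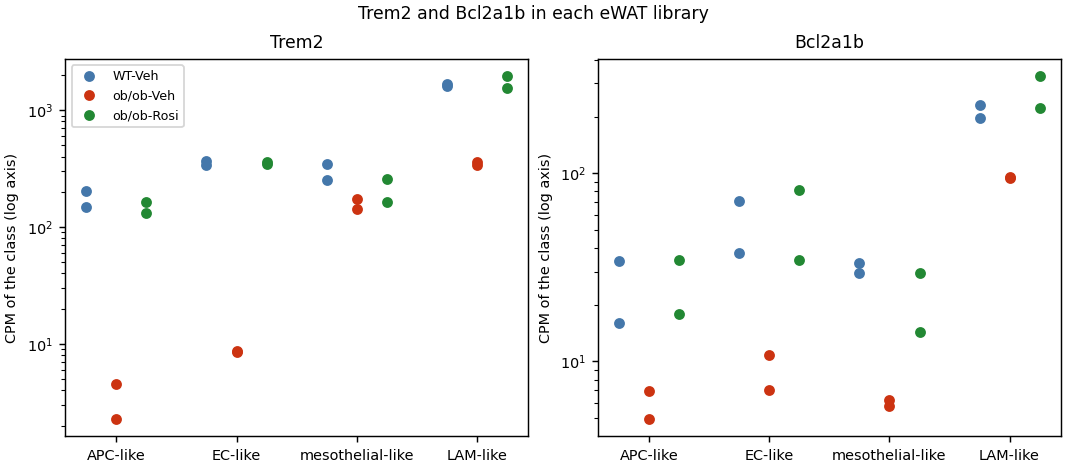
Trem2, a LAM marker (left), and Bcl2a1b (right) in 4 eWAT classes, in CPM of the class on a log axis, with each library a point (blue WT-Veh, red ob/ob-Veh, green ob/ob-Rosi). In EC-like cells both genes are lower in the 2 ob/ob-Veh libraries, Trem2 at 8.6 beside 336 to 366 in the others.

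In iWAT Bcl2a1b was called in 3 classes (0.269% of genes lower in 3 or more), with the Lyz1-led cluster at 231 and 332, then 30.9 and 65.5, then 383 and 290 CPM (-2.94 ± 0.47, adjusted p = 0.00988, and 3.26 ± 0.47, adjusted p = 0.00789). PVM-like cells had 38.1 and 25.9, then 3.63 and 7.1, then 54.1 and 34.5 CPM (-2.75 ± 0.39, adjusted p = 0.00961). The EC-like call rests on 1 and 5 ob/ob-Veh UMIs of Bcl2a1b and the NK-like drug call on 1 and 2. The iWAT EC-like class also included a cluster of 637 cells whose macrophage marker score (0.405) was close to its EC score (0.445). Over the 6 libraries this cluster held 34, 61, 3, 15, 164 and 360 cells. Its part in the iWAT EC-like changes of Bcl2a1b was not tested. Bcl2a1d, the near copy, was called in eWAT LAM-like cells and in the Lyz1-led cluster (-2.33 ± 0.48, adjusted p = 0.024).

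Bcl2, in contrast to the A1 genes, was higher in eWAT LAM-like cells under the ob/ob-Veh label, at 6.99 and 8.33, then 16.9 and 32.4, then 10.5 and 9.66 CPM (1.39 ± 0.34, adjusted p = 0.00773, and -0.96 ± 0.33, adjusted p = 0.0438). Bcl2l1 rose with the drug in the same class (36.4 and 28.6 in ob/ob-Veh, 51.7 and 56.6 in ob/ob-Rosi; 1.14 ± 0.27, adjusted p = 0.00635). Mcl1 was not called anywhere, and its eWAT obesity changes lay between -0.17 and 0.30. Of 11 other BCL2 family genes fixed as a list (median change 0.08), 1 of 56 eWAT pairs was called in the obesity comparison (1.79% beside 7.35%). That pair was a rise of Bcl2l2, the gene of the guardian BCL-W, in LAM-like cells (1.29, adjusted p = 0.0127). In iWAT 2 of 33 pairs were called (6.06% beside 3.28%), Bcl2l14 (-4.16) and Bcl2a1a (-2.12), both in the Lyz1-led cluster. Bcl2l14 was at 4.72 and 6.88, then 0.688 and 0, then 5.38 and 2.95 CPM there, so its change rests on few molecules.

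Of the BH3-only genes 3 of 54 eWAT pairs were called in each comparison, or 5.56% beside 7.35% and 7.19% of all gene-class pairs, and none and 1 of 33 in iWAT (3.03% beside 5.98%). Pmaip1 accounted for 2 rises in the obesity comparison, in eWAT LAM-like cells (8.03 and 8.81, then 22.1 and 34.6, then 9.47 and 5.85 CPM; 1.43 ± 0.35, adjusted p = 0.00721) and PVM-like cells (17.7 and 15.4, then 33.2 and 52.9, then 19.8 and 12 CPM; 1.27 ± 0.29, adjusted p = 0.0443). With the drug it fell in LAM-like (-1.56 ± 0.35) and NPVM-like cells (216 and 283 CPM in ob/ob-Veh, 88.4 and 87.1 in ob/ob-Rosi; -1.43 ± 0.26, adjusted p = 0.00411). Bad, which sensitizes cells by binding BCL-XL, was lower in eWAT LAM-like cells (-0.84 ± 0.28, adjusted p = 0.0393) and rose there with the drug (adjusted p = 0.0167). In the iWAT Lyz1-led cluster Bad was at 18.9 and 45.6, then 17.2 and 11.6, then 34 and 43.4 CPM (drug change 1.84 ± 0.49, adjusted p = 0.0296). Bcl2l11, Bid, Bbc3 and Bmf were not called in any class. Of these Bcl2l11, the gene of BIM, which binds each of the guardians, was the most abundant, at 326 ± 134 CPM in eWAT NK-like cells, and its eWAT obesity changes ran from -0.53 to 1.02. Bid, which links caspase-8 to the mitochondria, ran from 0.00 to 1.17.

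Bik was the single member called for a difference of the drug effect between the depots. The depot test covered 6 classes (APC-like, BC-like, EC-like, NK-like, PVM-like and T-like). LAM-like, NPVM-like, DC-like and mesothelial-like cells were not tested there. In iWAT APC-like cells Bik was at 0.975 and 1.25 CPM in WT-Veh, 0.114 and 0.331 in ob/ob-Veh, and 1.96 and 2.03 in ob/ob-Rosi. In eWAT APC-like cells it was at 1.99 and 1.31, then 4.34 and 5.51, then 1.56 and 1.59 CPM. The ob/ob-Veh libraries were thus the lowest in iWAT and the highest in eWAT. Bik was highest in EC-like cells, and free RNA was estimated from macrophage genes alone. The part of free EC-like RNA in these APC-like values was not tested. The difference of the drug effects, iWAT minus eWAT, was 4.88 ± 0.709 (adjusted p = 0.0248), in a test whose background was 0.0751% of gene-class pairs. The iWAT ob/ob-Veh values rest on 2 and 4 UMIs, the call was lost after thinning to 700 UMIs per cell and without eWAT ob/ob-Rosi replicate 2, either iWAT ob/ob-Rosi library or any ob/ob-Veh library, and within a depot neither drug change passed the test (adjusted p = 0.0697 in iWAT and 0.0513 in eWAT). Of 170 member-class pairs 16 had an unadjusted p under 0.05 for the drug difference and 20 for the obesity difference, where edgeR called none and DESeq2 2, beside a background of 0.427%.

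**Figure D5:**
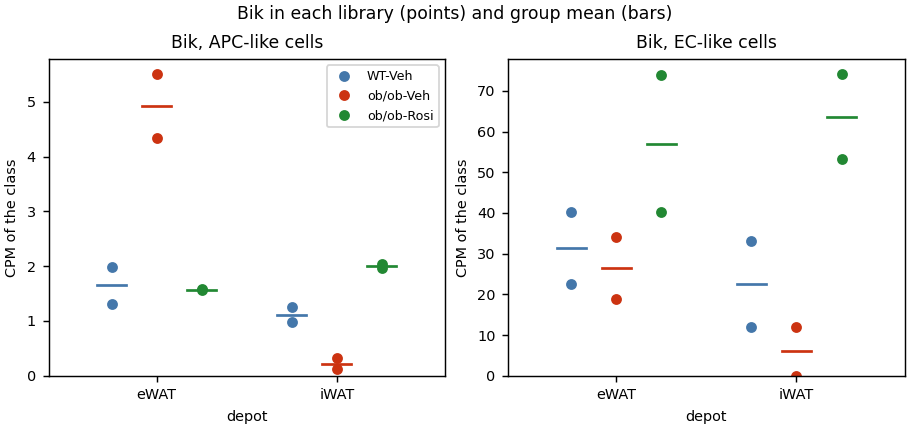
Bik in APC-like and EC-like cells of eWAT and iWAT, in CPM of the class, each library a point with a bar for the mean of 2 libraries. In APC-like cells the ob/ob-Veh libraries are the highest in eWAT (4.34 and 5.51) and the lowest in iWAT (0.114 and 0.331).

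Of the caspases and apoptosome genes, Cycs, for cytochrome c, and Apaf1 were called and the caspases were not (3 of 51 eWAT pairs in the obesity and 1 in the drug comparison, 5.88% and 1.96% beside 7.35% and 7.19%; 3 of 30 iWAT pairs in each, 10.0% beside 3.28% and 5.98%). Cycs was lower in ob/ob-Veh in eWAT LAM-like cells (85.8 and 78.1, then 39 and 59.4, then 76.8 and 86.6 CPM; -1.07 ± 0.27, adjusted p = 0.00908) and in 3 iWAT classes. In iWAT EC-like cells Cycs was at 164 and 162, then 70.5 and 82.3, then 92.2 and 84.9 CPM (-1.26 ± 0.26, adjusted p = 0.0395), and the ob/ob-Rosi libraries stayed below WT-Veh, whose EC-like cells came mostly from another cluster. With the drug Cycs was called higher in iWAT PVM-like cells (1.12 ± 0.25, adjusted p = 0.0338) and in the Lyz1-led cluster (1.65 ± 0.36, adjusted p = 0.0159). It also rose with the drug in eWAT LAM-like cells (1.09 ± 0.27, adjusted p = 0.00761). Being called lower in 3 or more iWAT classes was shared by 0.269% of genes. Apaf1 was higher in eWAT PVM-like cells (18.8 and 31.3, then 54.9 and 60.9, then 21.9 and 25.9 CPM; 1.11 ± 0.26, adjusted p = 0.0463) and T-like cells (23.4 and 21, then 68.2 and 72.5, then 14.6 and 27.4 CPM; 1.53 ± 0.36, adjusted p = 0.0212).

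None of Casp2, Casp6, Casp8 and Casp9 was called in any class, their changes in the eWAT obesity comparison lying between -0.83 and 1.22. Among 10 further caspases and cofactors, 15 of 77 eWAT pairs were called in the obesity comparison (4 higher, 11 lower; 19.5% beside 7.35% of all gene-class pairs) and 8 (7 higher, 1 lower; 10.4% beside 7.19%) in the drug comparison, with 3 of 47 iWAT pairs (6.38% beside 3.28%) and 7 (14.9% beside 5.98%). In LAM-like cells Casp12 was higher by 3.61, and Casp1, the gene of the inflammatory caspase, at -1.66 (adjusted p = 2.82e-05 and 0.0021), and Pycard, which encodes the inflammasome adaptor ASC, was at -2.01 in APC-like cells, where free macrophage RNA moved too.

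Of the inhibitors of apoptosis and their antagonist, 6 of 38 eWAT pairs were called in the obesity comparison (6 higher; 15.8% beside 7.35% of all gene-class pairs) and 6 in the drug comparison (6 lower; 15.8% beside 7.19%), all of Birc3 or Birc2. In iWAT 1 of 26 (3.85% beside 3.28%) and 3 (11.5% beside 5.98%) were called. Birc3, whose product c-IAP2 is a ubiquitin ligase of the TNF receptor complex, was the widest. In eWAT PVM-like cells Birc3 was at 65 and 100 CPM in WT-Veh, 296 and 303 in ob/ob-Veh, and 97.9 and 108 in ob/ob-Rosi (1.76 ± 0.25, adjusted p = 0.00659, and -1.42 ± 0.25, adjusted p = 0.022). T-like cells went from 44.3 and 47.1 to 245 and 270 CPM, with 132 and 40 in ob/ob-Rosi (2.32 ± 0.41, adjusted p = 0.00467, and -1.73 ± 0.42). The ob/ob-Veh libraries were above the other 4 in both classes.

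Birc3 in LAM-like cells was at 33.1 and 52.2, then 159 and 138, then 45.8 and 35.1 CPM (1.45 ± 0.27, adjusted p = 0.0013). In APC-like and NPVM-like cells the changes were 1.04 ± 0.24 and 1.18 ± 0.28, giving 5 classes in each comparison. Of the 14568 genes tested in any eWAT class, 0.178% were called higher and 0.254% lower in 5 or more. In iWAT PVM-like cells Birc3 was at 98.8 and 103, then 295 and 333, then 107 and 89.7 CPM (1.47 ± 0.24, adjusted p = 0.0167, and -1.50 ± 0.24, adjusted p = 0.019), and the Lyz1-led cluster fell with the drug (-1.47 ± 0.31). Birc3 was higher in 10 of 10 eWAT and 7 of 7 iWAT classes, also with library size alone, beside 15.3% and 16.2% of genes higher in each class.

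In eWAT, genes that respond to tissue dissociation moved with Birc3. A list of 18 such genes had 33 of 179 eWAT pairs called higher and none lower in the obesity comparison (median 0.69; 18.4% called beside 7.35% of all gene-class pairs) and 34 called lower in the drug comparison (median -0.81; background 7.19%), against 4 higher and 1 lower of 121 in iWAT (4.13% beside 3.28%) and 2 higher and 7 lower (7.44% beside 5.98%). Their summed level in eWAT PVM-like cells was 18840, 22439, 36605, 28710, 19680 and 20460 CPM, and in T-like cells 6667, 5834, 15754, 14996, 6381 and 8053 CPM. In iWAT PVM-like cells, where Birc3 was called, the summed levels of the groups overlapped (21866, 26542, 23600, 24648, 26174 and 22504 CPM). The list's calls there included Ier3 at -1.44 in the obesity comparison and Ier3 at 1.23 and Atf3 at 1.46 in the drug comparison. NF-kB target genes, of which Birc3 is a known one, had 15 of 150 eWAT pairs called higher and 3 lower, and 4 higher and 15 lower with the drug (backgrounds 7.35% and 7.19%), and in iWAT 3 and 1, then 4 and 4 of 93 (backgrounds 3.28% and 5.98%). In T-like cells Nfkb1, a subunit gene of NF-kB, was higher by 2.65 and Tnfaip3, which encodes the inhibitor A20, by 1.49 on the log2 scale. The part of dissociation in the Birc3 change was not tested.

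Birc2 was called higher in eWAT LAM-like cells (12.9 and 16.6, then 55.9 and 36.1, then 14.9 and 13 CPM; 1.26 ± 0.30, adjusted p = 0.0063). With the drug Birc2 was called lower there (-1.32 ± 0.30, adjusted p = 0.00437) and in iWAT PVM-like cells (-1.46 ± 0.31, adjusted p = 0.03). Xiap was not called, with changes of 0.30 to 1.42 in eWAT and a smallest adjusted p of 0.108. Diablo, whose product antagonizes these inhibitors, ran from -0.04 to 0.28 in eWAT. Of 9 other inhibitor genes 6 of 75 eWAT pairs were called lower (background 7.35%) and 7 higher with the drug (9.33% beside 7.19%; iWAT 2 of 50 lower and 3 higher, backgrounds 3.28% and 5.98%). Among them were Birc5, survivin of dividing cells, in LAM-like cells (-4.48 and 4.20) and Dad1, a subunit of the oligosaccharyltransferase (-0.91 and 1.16). Birc5 was at 38.3 and 27.6, then 1.30 and 2.26, then 25.4 and 28.4 CPM there, so its ob/ob-Veh values rest on few molecules.

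Of the death receptor group a single pair of 47 was called in each eWAT comparison, or 2.13% beside 7.35% and 7.19% of all gene-class pairs, and none in iWAT. That pair was Tradd, an adaptor of TNF receptor 1, in LAM-like cells (23.8 and 23.1, then 15.6 and 10.5, then 17.1 and 23 CPM; -1.25 ± 0.35, adjusted p = 0.0157, and 1.06 ± 0.35, adjusted p = 0.035). Fas, Fasl, Tnfrsf10b, Fadd, Ripk1 and Cflar were not called. Cflar, which encodes the caspase-8 inhibitor FLIP, had a smallest adjusted p of 0.0769 in the eWAT obesity comparison, and Ripk1 ran from -0.06 to 0.48. Of 15 other death receptor genes, 11 of 120 eWAT pairs were called in the obesity comparison (7 higher, 4 lower; 9.17% beside 7.35%) and 8 with the drug (4 and 4; 6.67% beside 7.19%), and 3 of 73 in iWAT in each (4.11% beside 3.28% and 5.98%). Ripk3, the kinase of necroptosis, was at -2.11 in eWAT LAM-like cells. Its ob/ob-Veh levels there, 2.60 and 6.77 CPM beside 17.7 and 17.0 in WT-Veh, rest on few molecules.

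Among p53 and the nuclease genes, 3 of 38 eWAT pairs were called lower in the obesity comparison and 2 higher with the drug, or 7.89% and 5.26% beside 7.35% and 7.19% of all gene-class pairs, and none in iWAT. Aifm1, which encodes the mitochondrial factor AIF, was at 23.2 and 17.7, then 6.5 and 4.52, then 18.2 and 12.6 CPM in LAM-like cells (-2.31 ± 0.44, adjusted p = 0.00145, and 1.91 ± 0.44, adjusted p = 0.00511). It was also lower in PVM-like cells, at 30.8 and 18.4, then 7.97 and 6.99, then 17.7 and 10.3 CPM (-1.83 ± 0.34, adjusted p = 0.0207). The LAM-like ob/ob-Veh values of Aifm1 rest on few molecules, since that class held few cells in those libraries. Endog, the gene of a mitochondrial nuclease, was lower in LAM-like cells (-1.15 ± 0.36, adjusted p = 0.0296). Dffb, for the caspase-activated nuclease, Dffa, for its inhibitor, and Trp53 were not called. Trp53 itself ran from -0.43 to 0.51 in eWAT and from -1.71 to -0.30 in iWAT, and of 18 p53 target genes 8 of 134 eWAT pairs were called (2 higher, 6 lower, median 0.00; 5.97% beside 7.35%) and 7 with the drug (5.22% beside 7.19%), with 2 of 80 and 1 in iWAT (backgrounds 3.28% and 5.98%).

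Several of these results touch the same class, and its composition differed. In both depots most APC-like and PVM-like cells of the ob/ob-Veh libraries came from clusters that held few cells of the other libraries, such as an eWAT PVM-like cluster with 1825 and 1807 ob/ob-Veh cells and 4 to 42 cells of each other library. The eWAT LAM-like cells came from the same 4 clusters in all groups but in other shares, with 68 of 124 and 73 of 162 ob/ob-Veh cells in a cluster whose next best marker score was APC, beside 302 of 5276 in WT-Veh replicate 1. The largest eWAT LAM-like cluster, with 5449 cells, had a LAM marker score of 0.318. It was led by Cxcl2, Gdf15, Ccl4 and Ccl3, which were not on the LAM marker list. The next best marker score of the eWAT T-like class was that of group 2 innate lymphoid cells (ILC2), at 0.63. Finer clustering gave an ILC2-like cluster with 190 and 135 ob/ob-Veh cells and 2 to 32 cells of each other library. Nfkb1 was among its leading genes. The eWAT T-like values of Bax, Birc3, Apaf1 and Nfkb1 can thus compare different mixes of cells. The iWAT EC-like cells of WT-Veh came mostly from a cluster (451 of 562 and 946 of 1175 cells) that held at most 12 cells of any other library, so the EC-like values of Bax, Bcl2a1b, Cycs, Bmf and Casp8 in iWAT compare cells of different clusters. In iWAT, finer clustering gave NPVM-like clusters with Lyz1, Tnip3, Ccr2 and Ear2 among their leading genes. One held 548 and 322 ob/ob-Veh cells and 9 to 59 cells of each other library. Another held 16 and 5 ob/ob-Veh cells and 70 to 761 cells of each other library, so the Lyz1-led cluster can also differ in its mix. A change in a class can thus come from a change within cells or in the mix of cells, and these cannot be told apart. Over all kept iWAT cells the median mitochondrial share of UMIs was highest in the ob/ob-Veh libraries (5.89%, 3.32%, 9.05%, 8.06%, 4.48% and 2.17%). In the Lyz1-led cluster it was 10.6%, 3.23%, 12.1%, 11.6%, 4.36% and 2.16% over the 6 libraries. The WT-Veh values there were 231 and 332 CPM for Bcl2a1b and 88.2 and 180 CPM for Bax, above those of ob/ob-Veh. In iWAT PVM-like cells the share was 8.08%, 3.79%, 9.97%, 8.59%, 4.69% and 2.46%, and in the EC-like and NK-like classes the ob/ob-Veh libraries overlapped WT-Veh replicate 1 (4.91% and 6.33% beside 4.95%, and 9.15% and 10.9% beside 10.5%). Its part in the iWAT changes of Bax, Bcl2a1b and Cycs was not tested.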

How the data were processed

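UMI counts per gene and cell barcode were deposited for 12 libraries; the authors made them with Cell Ranger 3.0.2 on mm10 after bcl2fastq 2.19.1.403, per the submitters' processing notes. Cells with 700 to 22000 UMIs, 200 to 6000 genes and under 25% mitochondrial UMIs were kept (scanpy 1.11.5), clustered per depot (2000 variable genes without the 36 members, 25 components, 20 neighbours, Leiden resolution 1) and named from marker lists. Counts were summed per library and class of at least 20 cells. edgeR 4.0.16 (TMM, quasi-likelihood test, limma 3.58.1, R 4.3.3) was fitted per depot and class over all genes, with Benjamini-Hochberg adjustment, and checked on simulated data. DESeq2 1.42.0, library size, no filter, thinning, doublet removal (Scrublet), finer clustering, cells assigned singly and leaving out each library were alternatives. All 36 members are accounted for, with values for called pairs of the largest change and for members called in 3 or more classes. Members and lists were chosen with earlier results of these data known, and the naming rule was adjusted after clusters, but not group comparisons, were seen. Gene positions are from GENCODE on GRCm38, promoters from RefSeq. Proteins were not used here.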

Additional observations from a re-analysis of the deposited data

Results flagged for a closer look

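The drug effect on Bik in APC-like cells differed between iWAT and eWAT by 4.88 on the log2 scale, and the test of that difference over all genes of the class passed its threshold (edgeR, adjusted p = 0.0248). It was picked out because the estimates of the same contrast had opposite signs in the 2 depots, at 3.28 ± 0.69 in iWAT and -1.58 ± 0.44 in eWAT. Within a depot neither of these changes passed the test. The call for the difference was lost after the cells were thinned, and also when certain single libraries were left out. Both Bik values in ob/ob-Veh iWAT rest on 2 and 4 UMIs. Groups of 2 libraries are too small to look for single libraries that stand out.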

How the results depend on the processing

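In eWAT the 27 called pairs of the obesity comparison became 46 with a replicate block, 13 with cells thinned to 700 UMIs and 14 without Scrublet doublets, and ranged from 9 to 39 with a library left out. The 27 of the drug comparison became 47, 14 and 12, and ranged from 8 to 51. Between ob/ob-Rosi and WT-Veh the count of 0 became 1 with DESeq2, with no filter and with the block, and stayed at 0 with a library left out. In iWAT the 12 became 29 with no filter, 7 after thinning and 4 with cells assigned singly, and ranged from 0 to 33. The 16 became 35 with no filter, 34 with the block and 8 with cells assigned singly, and ranged from 0 to 39. The 0 became 2 with DESeq2, 4 with no filter and 5 with the block, and ranged from 0 to 11. The depot difference of the obesity effect (0) became 2 with DESeq2 and 4 with no filter and ranged from 0 to 1. That of the drug effect (1) became 3 with no filter and 0 after thinning, and ranged from 0 to 1. The other counts were within 1.5 times. Over 58 named pairs and 930 comparisons, 686 kept direction and call, 243 lost the call, and 1 reversed, the eWAT LAM-like obesity change of Bcl2a1b with cells assigned singly (0.19). Calls were lost in 41 of 57 without ob/ob-Veh replicate 1 and 44 of 57 without replicate 2. The cause was not tested.

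The replicate block changed no call among the named pairs. Deviations of same-numbered libraries correlated at -0.10 to 0.60 over classes and pairs of groups, above 0.1 for all 3 pairs of groups in some classes and not in others. In iWAT those of WT-Veh and ob/ob-Rosi correlated at 0.19 (BC-like) to 0.60 (PVM-like), and those of pairs with ob/ob-Veh at -0.10 to 0.17. Nothing in the labels ties the numbers to mice, so they were not taken to pair the libraries. With 2 libraries a group, counts of few UMIs limit the less abundant members most, and a missed threshold does not show equal levels. UMI sums are shares of a class, so composition of a class cannot be separated from change within its cells.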

Other observations

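Genes for the engulfment of dying cells, a list of 15, were called in 25 of 135 eWAT pairs in the obesity comparison (5 higher, 20 lower; 18.5% beside 7.35% of all gene-class pairs) and 27 of 135 in the drug comparison (23 higher, 4 lower; background 7.19%). These counts hold calls of C1qa, C1qb and C1qc in mesothelial-like and APC-like cells, where the same genes served as the measure of free macrophage RNA. For those calls, free RNA and expression by these cells cannot be told apart. In iWAT 6 of 84 pairs (all higher; 7.14% beside 3.28%) and 3 (2 higher, 1 lower; 3.57% beside 5.98%) were called. Gas6, a bridging factor between phosphatidylserine and its receptors, was 1.71 higher on the log2 scale in the ob/ob-Veh libraries of the iWAT Lyz1-led cluster (edgeR, adjusted p = 0.0175) and changed by -1.36 with the drug (adjusted p = 0.016). Timd4, the phosphatidylserine receptor of resident macrophages, was 5.08 higher in eWAT LAM-like cells of ob/ob-Veh libraries, whose cells came from the clusters of that class in other shares.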
